A study of Mus musculus with 11 samples.

Results

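The baseline transcriptome of p53+/+ LSK cells was described from 3 RNA-seq libraries, of 11 samples in the series and 9 RNA-seq libraries in its count table. The members were chosen by their labels alone: p53+/+ LSK replicates 1, 2 and 3, with every one of the 12647 genes of the table. LSK cells are bone marrow cells that lack lineage markers and carry the surface proteins Sca-1 and Kit (Lin-Sca1+Kit+), sorted here from C57BL/6 mice. The p53+/+ animals of the study were young adults that carry HUPKI alleles, in which most of the mouse p53 coding sequence is replaced by the human sequence under the mouse promoter, and no other treatment is given for them. The sources used here do not say how many mice gave each library or whether the libraries came from separate animals, so the spread between them may be partly technical. Libraries of other genotypes were left out, and no genotype was compared with another.

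Hematopoietic stem cells (HSCs) and the multipotent progenitors (MPPs) below them share the LSK surface phenotype. HSCs are mostly quiescent, are held in the marrow niche by adhesion and growth factor signals, and are known for high Mecom, Hlf and Procr transcripts. MPPs divide more often, carry Flt3 or Cd48 as they leave the stem cell state, and begin to transcribe genes of the myeloid or lymphoid lineages at low level, which is called lineage priming. A bulk LSK library is therefore an average over stem cells and several kinds of progenitor, in which fewer cells of a type and less RNA per cell cannot be told apart.

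Levels are given in TPM, the deposited count of a gene divided by the gene's length and scaled so that all genes sum to 1000000 in each library, so that levels of different genes can be set side by side. Values follow the order replicate 1, 2 and 3, and the spread between libraries is the highest TPM divided by the lowest. Shares of all genes that were highest or lowest in a library are on TPM, and were not computed for other scalings. The libraries held 19608326, 19598381 and 18021375 counts, and 1 TPM of a gene of median length (2866 bases) stood for 29.99, 27.1 and 27.2 counts. Pearson's r of log2(TPM + 1) across genes was 0.974 between replicates 1 and 2 and 0.981 for both other pairs. Every pair of libraries differed by more than sampling noise (chi-square per degree of freedom of at least 53.2), so none was a second deposit of another.

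Replicate 2 stood apart in 3 ways. It held transcripts of granule proteins of mature neutrophils, eosinophils and basophils far above both other libraries, with values given under the variable genes. It held Y-linked transcripts that were at or near 0 in the others. *Eif2s3y* was at 0, 45.7 and 0.0595 TPM, where no count in replicate 1 allows up to 0.162 TPM (3 counts). *Ddx3y* was at 0.0206, 15.4 and 0.0454 TPM. *Xist*, the X-inactivation transcript, was at 27.9, 7.70 and 29.9 TPM, lowest in replicate 2 but not at 0. Levels also moved with gene length between libraries. Among genes with a mean of at least 10 TPM, the median deviation of replicate 2 from the gene's own mean on the log2(TPM + 1) scale went from -0.12 in the shortest of 5 bins of gene length to 0.27 in the longest, while replicate 1 went from 0.06 to -0.17 and replicate 3 from 0.06 to -0.10. Groups of short genes, such as ribosomal proteins, and of long genes, such as integrins, are described with this in view, and the part of gene length in their order was not tested beyond that.

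**Figure D1:**
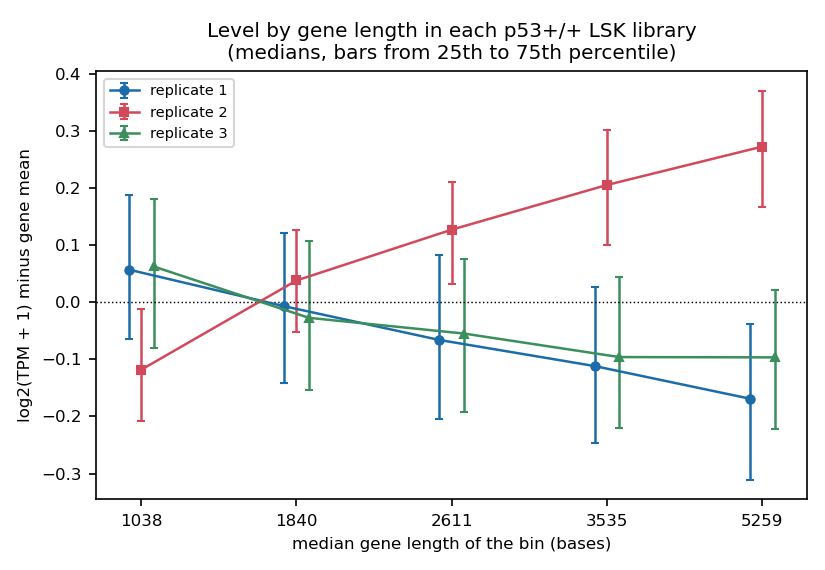
Median deviation of each p53+/+ LSK library from the gene's own mean, on the log2(TPM + 1) scale (y axis), in 5 bins of gene length of about equal size (x axis, median length in bases), over 8404 genes with a mean of at least 10 TPM. Bars run from the 25th to the 75th percentile of genes. Replicate 2 climbs from -0.12 to 0.27 with length, and replicates 1 and 3 fall.

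LSK cells transcribed most of the genes in the table. 11357 genes, or 89.8%, had at least 1 TPM in every library, and 7838, or 62.0%, had at least 10 TPM in every library. The table had been filtered for low counts before deposit, so these shares refer to genes that passed that filter. By the mean of the libraries, 93.5% of all genes reached 1 TPM and 66.5% reached 10 TPM. Levels of at least 100 TPM in every library were held by 1889 genes and of at least 1000 TPM by 99. The median of the gene means was 22.0 TPM, with a 10th percentile of 1.58 and a 90th percentile of 166 TPM. The 100 highest genes held 19.7% of all TPM and the 10 highest held 4.11%, and no gene reached 1% in any library.

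The highest transcript was *B2m*, the light chain of MHC class I, at 8491, 7482 and 6177 TPM, followed by *Gpx1*, a glutathione peroxidase that removes hydrogen peroxide, at 5856, 4462 and 4813 TPM. The peptidyl-prolyl isomerase *Ppia* was at 4255, 3469 and 4736 TPM and the translation elongation factor *Eef1a1* at 4832, 3642 and 3461 TPM. Of the 20 highest genes, 8 coded for ribosomal proteins (among them *Rpl32*, *Rps14*, *Rpl13*, *Rps19*, *Rps18* and *Rps9*), and the others included the actin cytoskeleton genes *Tmsb4x*, *Actb* and *Pfn1*, the histone variant gene *H2afy*, the MHC class I heavy chain *H2-K1*, the ferritin light chain *Ftl1* and the complex I subunit *Ndufa4*. *Plac8*, a small cysteine-rich protein known from myeloid and lymphoid progenitors, was at 3737, 2589.7 and 3094 TPM. The same 20 genes were the highest without replicate 2, and 19 of them were without replicate 1 or without replicate 3.

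**Figure D2:**
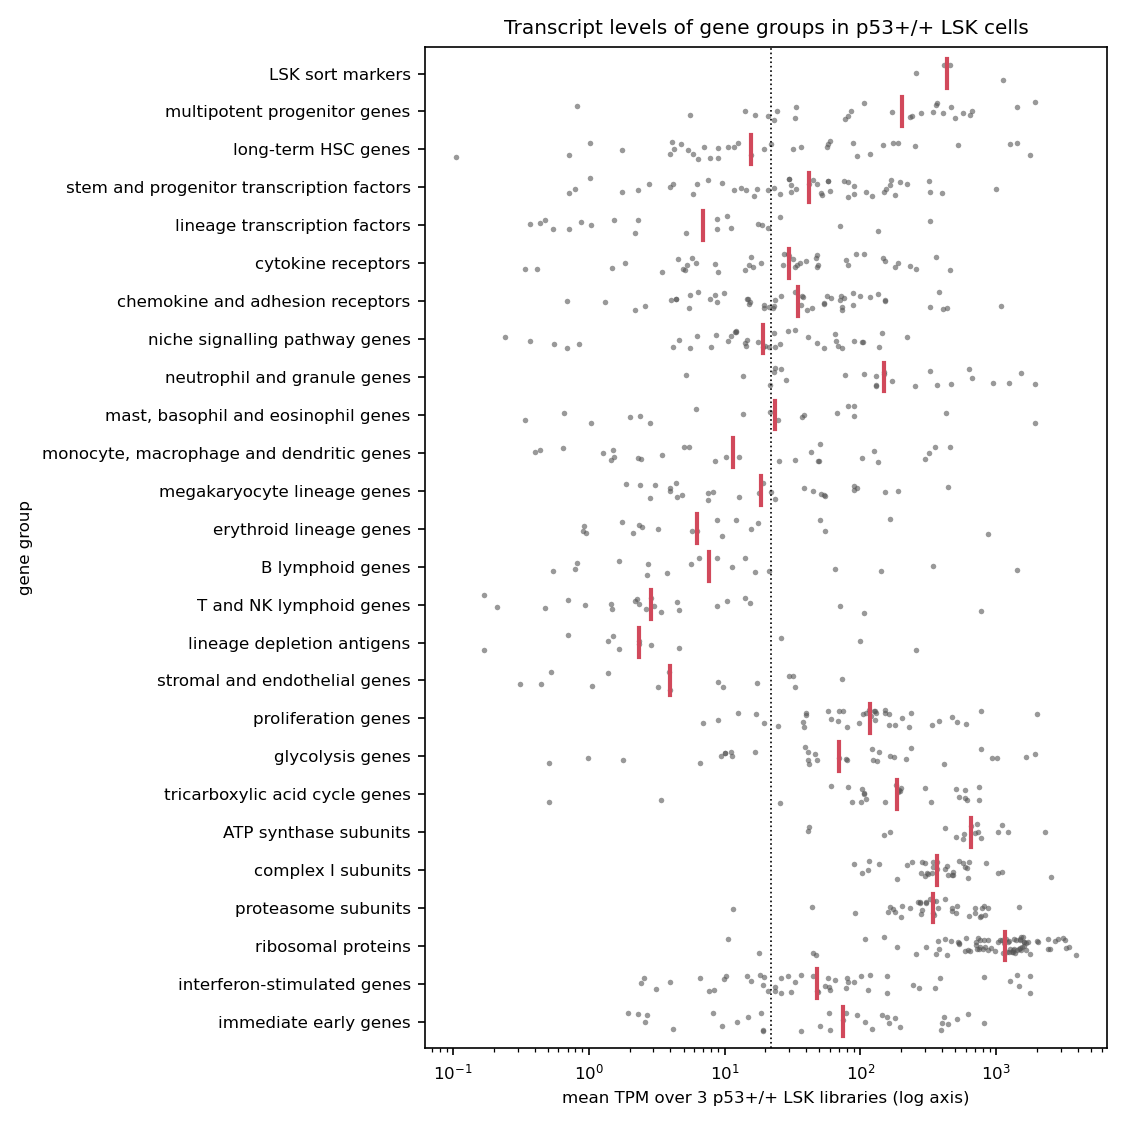
Mean TPM over the 3 p53+/+ LSK libraries (x axis, log scale) for the measured members of 26 gene groups (y axis). Each grey point is a gene, placed at random within its row, the red bar is the group's median and the dotted line is the median of all genes, 22.0 TPM. Ribosomal proteins have the highest median, 1156 TPM, and the lineage depletion antigens the lowest, 2.34 TPM. In the granulocyte rows the means are raised by replicate 2. Medians in replicates 1, 2 and 3 were 14.4, 370 and 40.3 TPM for neutrophil and granule genes. They were 1.92, 57.6 and 2.93 TPM for mast, basophil and eosinophil genes.

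The genes of the sort and of the usual LSK subdivision were all high. *Kit*, the stem cell factor receptor on which the cells were gated (chromosome 5, 75574987 to 75656722 on GRCm38), was at 231, 353 and 185 TPM. *Ly6a*, which codes for Sca-1 (chromosome 15, 74994877 to 74998031), was at 496, 463 and 282 TPM. *Cd34*, a sialomucin that separates progenitors from long-term HSCs in mice, was at 1104, 1278 and 988 TPM. *Flt3*, the receptor that marks lymphoid-primed MPPs, was at 477, 507 and 379 TPM. All 4 lay above the 90th percentile of genes, and all 4 were lowest in replicate 3. Their spread between libraries ran from 1.29 times for *Cd34* to 1.91 times for *Kit*, against a median of 1.36 times over all genes with a mean of at least 10 TPM.

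Genes known from long-term HSCs spanned 4 orders of magnitude in TPM. Of 38 genes on the list, 37 were measured, 35 had a mean of at least 1 TPM and 22 of at least 10 TPM, with a median of 15.7 TPM. The top of the list was held by membrane proteins that many progenitors share. *Ifitm3* was at 1751, 1813 and 1782 TPM. *Ly6e* was at 1288, 1521 and 1421 TPM. *Cd81* was at 579.8, 523 and 478 TPM. *Angpt1*, the ligand of the Tie receptor pathway, was at 139, 177 and 124 TPM. *Pdzk1ip1* was at 135, 88.8 and 59.2 TPM. *Eng*, a TGF-beta co-receptor, was at 91.5, 107 and 64.9 TPM.

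Narrower stem cell genes were lower. *Hlf*, a PAR bZIP transcription factor, was at 68.7, 72.0 and 39.2 TPM. *Procr*, which codes for EPCR, was at 47.6, 40.2 and 22.5 TPM. *Mecom*, which codes for EVI1, was at 11.1, 16.1 and 8.21 TPM. *Slamf1*, which codes for the CD150 antigen used to sort HSCs, was at 5.37, 4.96 and 4.11 TPM. *Vwf* was at 4.70, 4.54 and 2.59 TPM. *Fgd5* was at 4.61, 5.63 and 2.49 TPM. *Hoxb5* was at 2.87, 1.51 and 0.889 TPM and the imprinted transcript *Meg3* at 0.148, 0.0408 and 0.13 TPM. The list was lowest in replicate 3: of the 35 genes with a mean of at least 1 TPM, 26 had their lowest level there, or 74.3%, against 42.2% of all genes at that level. Under TMM scaling the number was 23, and with the length trend removed 25, for which the share of all genes was not computed. *Procr*, *Hlf*, *Robo4* (23.3, 23.9 and 10.99 TPM) and *Tie1* (37.3, 37.2 and 20.6 TPM) lay close together in replicates 1 and 2 and lower in replicate 3.

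Genes of MPPs and of lineage priming were higher. Of 28 measured genes, 26 had a mean of at least 10 TPM and 16 of at least 100 TPM, with a median of 202 TPM. Of the 26, 9 had a highest library at least 2 times the lowest, where 4.90% of all genes at that level did (412 of 8404). The count was 3 without replicate 1, 3 without replicate 2 and 6 without replicate 3. Over all genes 412 became 165, 198 and 201, respectively, since fewer libraries give smaller ranges by construction. On the myeloid side, *Mpo*, the myeloperoxidase of primary granules, was at 1276, 2576 and 1936 TPM. The serine protease *Prtn3* was at 553, 620.2 and 812 TPM. *Elane*, the neutrophil elastase, was at 290.3, 617 and 493 TPM. *Ctsg*, which codes for cathepsin G, was at 239, 369.9 and 489.7 TPM. These primary granule genes were high in every library. *Csf3r*, the G-CSF receptor, was at 80.3, 143 and 93.8 TPM. *Csf1r*, the M-CSF receptor, was at 21.2, 52.5 and 25.1 TPM.

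On the lymphoid side, *Dntt*, the terminal transferase that adds bases to immunoglobulin gene joints, was at 1838, 1059.9 and 1366 TPM. *Il12a*, a subunit of interleukin 12, was at 187, 139 and 190.5 TPM. The recombinase genes lay far lower. *Rag2* was at 23.2, 11.4 and 15.9 TPM. *Rag1* was at 0.889, 0.508 and 1.06 TPM. *Il7r*, whose product drives early lymphoid growth, was at 16.4, 8.34 and 17.4 TPM. *Dntt* and *Rag2* were lowest in replicate 2 and *Mpo* and *Elane* highest there. *Cd48*, which is gained as cells leave the HSC state, was at 559.8, 690.4 and 664 TPM. *Cd27* was at 401, 365 and 315 TPM.

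**Figure D3:**
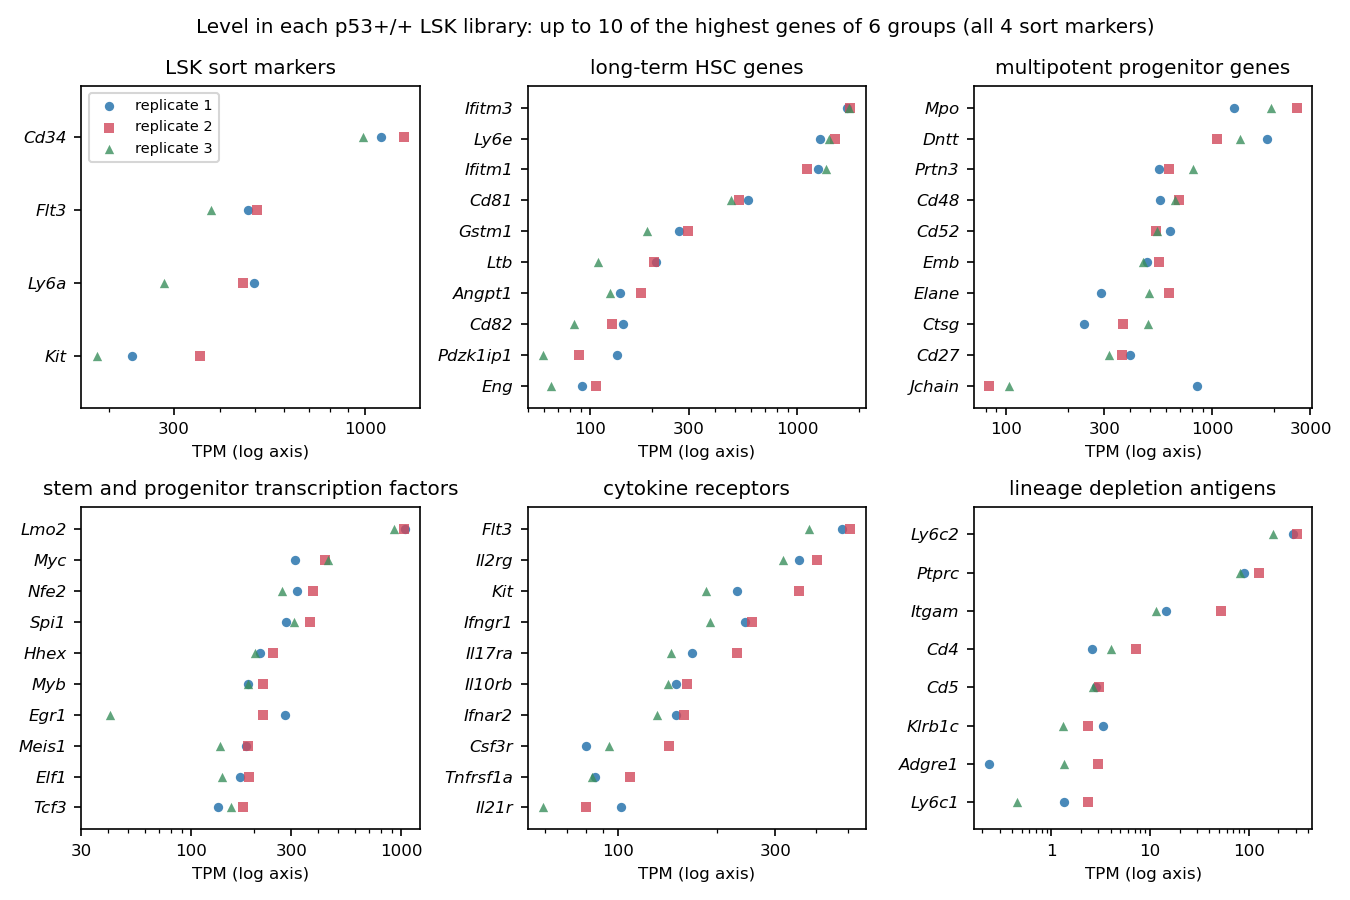
TPM (x axes, log scale) in each p53+/+ LSK library for the 4 sort markers and for up to 10 of the highest genes with counts in every library (y axes) of 5 other groups. Circles, squares and triangles are replicates 1, 2 and 3. The sort markers lie at over 100 TPM in every library, while all but 3 of the lineage depletion antigens shown lie under 10 TPM in every library.

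Of 51 transcription factors of stem and progenitor cells, 39 (76.5%) had a mean of at least 10 TPM, against 66.5% of all genes, and 13 had one of at least 100 TPM. *Lmo2*, the bridging subunit of the TAL1 complex, was the highest at 1039, 1033 and 919.7 TPM. *Myc* followed at 310.2, 436 and 447 TPM, then *Nfe2* at 319.9, 381 and 269 TPM and *Spi1*, which codes for PU.1, at 283, 367 and 309.8 TPM. Other members of the HSC network followed. *Hhex* was at 212, 244 and 202 TPM. *Myb* was at 187, 219 and 185 TPM. *Meis1* was at 182, 187 and 137 TPM. *Gata2* was at 82.2, 114 and 71.5 TPM. *Fli1* was at 83.5, 105 and 79.0 TPM. *Ikzf1* was at 74.8, 88.9 and 64.4 TPM. *Runx1* was at 28.1, 36.6 and 24.9 TPM. *Erg* was at 14.3, 18.7 and 16.3 TPM. *Tal1* was at 10.98, 15.6 and 12.8 TPM, far under *Lmo2*. Of those with a mean of at least 10 TPM, *Egr1* (279.7, 221 and 41.1 TPM) alone had a highest library at least 2 times its lowest, where 4.90% of all genes at that level did.

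The Hox genes measured were all of the A and B clusters. *Hoxa9* was the highest of the 11 at 60.3, 57.5 and 55.3 TPM, followed by *Hoxa7* at 29.98, 29.9 and 31.9 TPM. *Hoxa10* was at 18.9, 12.9 and 11.1 TPM. The B cluster genes were under 5 TPM, with *Hoxb2* at 4.17, 3.18 and 4.59 TPM. *Hoxb4* was at 0.894, 0.619 and 1.56 TPM. Among other families, the SOX factor *Sox4* was at 271, 328 and 251 TPM, well above the next Sox gene, *Sox12*, at 14.5, 16.3 and 14.1 TPM. The highest Klf gene was *Klf6* at 117, 82.7 and 33.4 TPM, the highest Stat gene *Stat3* at 81.3, 137 and 95.1 TPM and the highest Fox gene *Foxn3* at 64.0, 78.1 and 56.5 TPM.

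Factors that set a single lineage were low. Of 22 such genes measured, 9 had a mean of at least 10 TPM, where 66.5% of all genes did, and 2 had at least 100 TPM, which were *Nfe2* and *Irf8*, the monocyte and dendritic cell factor, at 120.3, 155 and 129 TPM. *Cebpa*, which starts the granulocyte-monocyte program, was at 16.9, 27.4 and 18.7 TPM. *Gata1*, the erythroid and megakaryocyte factor, was at 14.6, 22.8 and 15.7 TPM. *Gata3*, the T cell factor, was at 12.2, 10.3 and 8.71 TPM. *Klf1*, of red cells, was at 9.22, 8.76 and 8.65 TPM. *Ebf1*, of B cells, was at 0.718, 0.616 and 0.297 TPM. *Cebpe*, of late granulocytes, was at 0.926, 12.7 and 1.96 TPM, high in replicate 2 only.

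Cytokine receptors of the stem and progenitor compartment covered a wide range of levels. Of 43 measured, 41 (95.3%) had a mean of at least 1 TPM and 30 (69.8%) of at least 10 TPM, against 93.5% and 66.5% of all genes. After *Flt3*, the highest was the common gamma chain *Il2rg* at 353, 402 and 317 TPM. *Ifngr1*, the interferon gamma receptor, was at 244, 256 and 190.2 TPM. The type I interferon receptor chains stood apart in level. *Ifnar2* was at 150.2, 158 and 131 TPM. *Ifnar1* was at 24.6, 33.5 and 24.4 TPM. *Il6st*, which codes for the shared chain gp130, was at 11.4, 19.7 and 15.5 TPM. *Tek*, the angiopoietin receptor, was at 9.84, 10.8 and 6.16 TPM. *Epor*, the erythropoietin receptor, was at 5.38, 5.61 and 6.33 TPM. *Lifr* was at 0.157, 0.686 and 0.408 TPM. Of the receptors with a mean of at least 10 TPM, 4 (13.3%) had a highest library at least 2 times the lowest, against 4.90% of all genes at that level. The count was 2 with TMM, DESeq2 or upper-quartile factors and 1 with the length trend removed. It was 3 without replicate 1, 0 without replicate 2 and 2 without replicate 3, where over all genes 412 became 165, 198 and 201.

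Downstream and niche pathways were led by kinases and signal carriers. *Ctnnb1*, which codes for beta-catenin, was at 202, 253 and 209 TPM. The Janus kinases *Jak1* and *Jak3* lay above *Jak2*: *Jak1* was at 114, 197 and 121 TPM. *Jak3* was at 115, 168 and 126 TPM. *Jak2* was at 19.4, 32.8 and 18.2 TPM. *Smad4* was at 82.3, 106 and 79.7 TPM. *Smo*, of the Hedgehog pathway, was at 46.1, 52.9 and 44.7 TPM. *Notch1* was at 22.8, 27.8 and 18.95 TPM. *Notch2* was at 11.1, 15.7 and 9.51 TPM. The Notch target *Hes1* was at 51.2, 6.78 and 1.74 TPM, 29.4 times higher in replicate 1 than in replicate 3, whereas *Notch1* varied by 1.47 times.

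Surface proteins of adhesion and self-recognition were prominent. *Cd47*, the signal that keeps macrophages from engulfing a cell, was at 1123, 1159 and 990.3 TPM. *Selplg*, the selectin ligand that guides cells to the marrow, was at 337, 441 and 353 TPM. *Cd63* was at 431, 434 and 429.5 TPM. Of the integrins, *Itgb1* was the highest at 106, 177 and 125 TPM. *Itga2b*, which codes for CD41, was at 42.4, 60.2 and 59.1 TPM. *Itga4*, the partner in binding VCAM1, was at 13.8, 17.1 and 14.9 TPM. All 16 integrins with a mean of at least 1 TPM were highest in replicate 2, against 53.1% of all genes at that level. The number fell to 13 under TMM scaling and to 10 with the length trend removed, for which the share of all genes was not computed. *Cxcr4*, the receptor that retains HSCs in the niche, was at 37.4, 39.1 and 33.4 TPM. *Cd44* was at 83.2, 78.6 and 54.7 TPM. *Cd38* was at 3.00, 2.61 and 0.984 TPM.

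Antigens against which lineage depletion is usually directed were near the bottom of the range. Of 12 measured, 3 had a mean of at least 10 TPM, against 66.5% of all genes: *Ptprc*, *Itgam* and *Ly6c2*. *Ptprc*, whose long isoform is the B220 antigen, was at 90.1, 128 and 80.8 TPM. *Itgam*, which codes for Mac-1, was at 14.4, 52.3 and 11.5 TPM. *Ly6c2* was at 281, 307 and 178 TPM. *Ly6c1*, a near-identical neighbour of *Ly6c2*, was at 1.34, 2.38 and 0.448 TPM, so how reads were divided between the pair is uncertain. *Cd4* was at 2.56, 7.18 and 4.01 TPM. *Cd8a* was at 0, 0.406 and 0.101 TPM, where no count in replicate 1 allows up to 0.0916 TPM. Of the 10 with a mean of at least 1 TPM, 9 were highest in replicate 2, against 53.1% of all genes at that level. Under TMM scaling the number was 7, for which the share of all genes was not computed. *Cd3e* and *Ly6g* were not analysed here.

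The erythroid list had a median of 6.30 TPM over 19 measured genes, with the globins not analysed here. Its highest member was the carbonic anhydrase *Car2* at 979, 898 and 730.2 TPM, which is also found in early progenitors, while the membrane anion exchanger *Slc4a1* was at 0.021, 4.93 and 0.347 TPM and the heme synthesis enzyme *Alas2* at 0.483, 28.1 and 7.61 TPM, both highest in replicate 2. The megakaryocyte list had a higher median, 18.5 TPM, and all 28 measured members reached a mean of 1 TPM, as did 93.5% of all genes. Platelet factor *Pf4* was at 56.7, 124 and 90.1 TPM and the glycoprotein *Gp9* at 49.3, 40.8 and 44.4 TPM. *Ppbp*, another platelet chemokine, was at 2.30, 15.8 and 35.4 TPM, lowest in replicate 1 and highest in replicate 3.

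The B lymphoid list had a median of 7.65 TPM, and it was led by *Dntt* and *Jchain*, the joining chain of secreted immunoglobulin, at 841, 83.2 and 103 TPM. *Cd79b* was at 176, 139 and 110.1 TPM, while its partner *Cd79a* was at 10.7, 21.3 and 2.30 TPM. *Ms4a1*, which codes for CD20, was at 0.279, 2.11 and 0 TPM, where no count in replicate 3 allows up to 0.154 TPM. The T and NK list had a median of 2.86 TPM. *Nkg7*, a granule membrane protein of cytotoxic cells, was an exception at 729.8, 806 and 763 TPM, as were the genes *Lck* and *Lat* of T cell receptor signalling. *Lck* was at 130.4, 97.6 and 89.5 TPM. *Lat* was at 78.7, 65.2 and 66.8 TPM. *Thy1* was at 1.49, 1.52 and 1.40 TPM. *Gzma* was at 0.98, 1.93 and 1.56 TPM. *Prf1* was at 0.838, 1.39 and 0.615 TPM.

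Of the monocyte, macrophage and dendritic genes, *Flt3* and the interferon-inducible membrane protein *Bst2* (362, 329 and 371 TPM) were followed by those of MHC class II presentation. *H2-Ab1* was at 415, 245 and 301 TPM. *Cd74* was at 391, 264 and 241 TPM. The lysosomal protease *Ctss* was at 159, 124 and 95.8 TPM. Mature macrophage and dendritic genes were low, with *Adgre1*, which codes for F4/80, at 0.236, 2.97 and 1.33 TPM. *Itgax* was at 1.83, 3.997 and 1.52 TPM. *Cd14* was at 0.173, 1.21 and 0.571 TPM. Stromal and endothelial genes had a median of 3.94 TPM over 15 measured genes. The highest of them, *Pecam1*, *Emcn* and *Tie1*, are also known from HSCs. *Pecam1* was at 64.1, 94.5 and 61.1 TPM. *Emcn* was at 36.6, 32.9 and 30.1 TPM, while the collagen gene *Col1a2* was at 0.892, 0.988 and 1.27 TPM.

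The cell division program was transcribed in every library. All 40 proliferation genes were measured, 38 had a mean of at least 10 TPM, and the median was 118 TPM. *Stmn1*, a microtubule regulator, was at 1971, 1922 and 2094 TPM, and the replicative helicase subunits *Mcm6* and *Mcm7* were at 639, 872 and 802 TPM and at 496, 655 and 644 TPM, respectively. *Pcna*, the sliding clamp, was at 497, 434 and 496 TPM. *Ccnb1* was at 116, 106 and 105 TPM. *Top2a* was at 76.5, 132 and 105 TPM. *Mki67*, the long transcript of the Ki-67 antigen, was at 12.9, 22.8 and 22.7 TPM. None of the 38 genes had a highest library 2 times its lowest, where 4.90% of all genes with a mean of at least 10 TPM did. 29 of the 40 had their lowest level in replicate 1, against 41.5% of all genes with a mean of at least 1 TPM.

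Among genes that open and hold the cell cycle, *Cdk4* was at 1236, 1222 and 1456 TPM. *Cdk6* was at 74.8, 99.7 and 106 TPM. Of the D cyclins, *Ccnd3* was the highest at 233, 328 and 308 TPM. *Ccnd2* was at 132, 156 and 159.6 TPM. *Ccnd1* was at 4.99, 6.08 and 10.8 TPM. Of the inhibitors, *Cdkn2d*, which codes for p19, was at 101, 96.6 and 80.1 TPM. *Cdkn1a*, which codes for p21, was at 62.7, 46.2 and 40.6 TPM. *Cdkn1c*, which codes for the p57 of quiescent HSCs, was at 17.1, 10.8 and 9.76 TPM. *Cdkn1b* was at 5.64, 5.28 and 4.73 TPM. *Txnip*, a thioredoxin-binding protein linked to quiescence, was at 416, 355 and 157 TPM, lowest in replicate 3.

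Energy metabolism was covered at high level, both in the cytosol and in mitochondria. Of the glycolysis genes, *Ldha*, which makes lactate, was at 1621, 1748 and 2445 TPM. *Gapdh* was at 1463, 1690 and 1808 TPM. *Pkm*, which codes for pyruvate kinase, was at 838, 1154 and 1044 TPM. The hexokinase *Hk1* was at 102, 173 and 123.1 TPM and exceeded *Hk2* at 8.22, 11.7 and 13.4 TPM. The glucose transporters *Slc2a3* and *Slc2a1* were at 57.0, 52.6 and 35.0 TPM and at 40.4, 42.3 and 43.6 TPM, respectively. *Eno1* was listed at 5.06, 8.40 and 6.46 TPM, a count that is uncertain because the gene has near-identical copies. The pyruvate dehydrogenase kinases, which close the entry to the mitochondrion, ran from *Pdk3* at 137, 145 and 132 TPM to *Pdk4* at 1.05, 0.429 and 0.061 TPM.

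Of 26 genes of the tricarboxylic acid cycle, 24 had a mean of at least 10 TPM, the median of all 26 was 186 TPM and none of the 24 had a highest library 2 times its lowest, where 4.90% of all genes at that level did. *Mdh2* was at 628, 732 and 879.8 TPM. *Idh2*, the mitochondrial isocitrate dehydrogenase, was at 632, 775 and 821 TPM, and its cytosolic counterpart *Idh1* at 60.8, 65.3 and 57.0 TPM. Respiratory chain genes were higher, with medians of 365 TPM for 35 complex I subunits, 514 TPM for 15 complex IV subunits and 650.3 TPM for 17 ATP synthase subunits. *Atp5b* was at 2141, 2332 and 2378 TPM and the ATP/ADP carrier *Slc25a5* at 1846, 1844 and 2318 TPM. 29 of the 35 complex I subunits were lowest in replicate 2, against 16.3% of all genes, but 14 were with the length trend removed.

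Biosynthetic enzymes followed. Nucleotide synthesis and pentose phosphate genes had a median of 145 TPM, led by the nucleoside diphosphate kinase *Nme1* at 657, 707 and 982 TPM and the purine salvage enzyme *Hprt* at 713, 544 and 667 TPM. *Phgdh*, the first enzyme of serine synthesis, was at 675, 715 and 834 TPM. *Shmt2*, of the mitochondrial one-carbon cycle, was at 209.7, 289 and 347 TPM. Of the 26 amino acid and one-carbon genes with a mean of at least 1 TPM, 20 were highest in replicate 3 and 21 lowest in replicate 1, against 21.5% and 41.5% of all genes at that level. With TMM, DESeq2 or upper-quartile factors 23 were highest in replicate 3, 13 lowest in replicate 1 and 10 lowest in replicate 2. *Asns*, the asparagine synthetase, was at 30.8, 33.1 and 68.5 TPM. *Mthfd2*, of the mitochondrial folate cycle, was at 19.2, 25.7 and 42.0 TPM. In both, the highest library was over 2 times the lowest.

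Fatty acid oxidation genes were present at moderate level, with *Echs1* at 216, 184 and 182 TPM and the carnitine transferase *Cpt1a* at 94.4, 157 and 64.1 TPM, lowest in replicate 3. *Fasn*, the fatty acid synthase, was at 22.6, 56.8 and 43.0 TPM. The master regulators of fat metabolism were near the bottom. *Pparg* was at 0.576, 1.37 and 1.81 TPM. *Ppargc1a* was at 0.883, 0.75 and 0.924 TPM. Of the antioxidant genes after *Gpx1*, the peroxiredoxins *Prdx1* and *Prdx2* were at 1336, 979 and 1259 TPM and at 1359, 998 and 1132 TPM, respectively. *Ucp2*, a mitochondrial carrier, was at 961, 1168 and 921 TPM. *Hif1a* was at 34.6, 38.8 and 33.6 TPM. *Egln1*, a hydroxylase that marks the *Hif1a* product for degradation, was at 38.6, 47.2 and 45.0 TPM. Of the 31 antioxidant and hypoxia genes with a mean of at least 10 TPM, 0 had a highest library 2 times its lowest, where 4.90% of all genes at that level did.

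Ribosomal proteins took the largest share of TPM of the groups listed here. The 82 ribosomal protein genes held 11.6%, 7.96% and 10.4% of all TPM. 81 of the 82 were lowest in replicate 2, against 16.3% of all genes with a mean of at least 1 TPM, and the number became 70 with the length trend removed, and many ribosomal protein genes have near-identical processed copies that can take reads. *Rpl32* was at 5004, 2947 and 3638 TPM. *Rps14* was at 4387, 2572 and 3389.9 TPM. Proteasome genes had a median of 339.8 TPM and mitochondrial ribosomal protein genes of 129 TPM. The highest proteasome gene was *Psmb8*, a subunit of the immunoproteasome, at 1481, 1404 and 1497 TPM.

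Chromatin regulators, among them genes that are often mutated in clonal hematopoiesis, were at moderate level: of 47, all had a mean of at least 1 TPM and 38 (80.9%) of at least 10 TPM, against 93.5% and 66.5% of all genes. The histone deacetylases *Hdac2* and *Hdac1* led at 242, 300.2 and 287 TPM and at 249, 251 and 227 TPM, respectively. The maintenance DNA methyltransferase *Dnmt1* was at 90.8, 165 and 132 TPM and the de novo enzymes *Dnmt3b* and *Dnmt3a* at 52.2, 74.7 and 69.0 TPM and at 21.3, 28.4 and 25.02 TPM, respectively. Of the Polycomb repressive complex 2, *Eed* was at 125, 131 and 141 TPM. *Ezh2*, its catalytic subunit, was at 70.0, 88.5 and 94.7 TPM. *Suz12* was at 28.8, 42.5 and 36.1 TPM. *Ezh1*, the other catalytic subunit, was at 24.1, 39.1 and 21.2 TPM. *Asxl1* was at 17.3, 28.3 and 21.8 TPM. *Tet2*, which oxidizes methylcytosine, was at 3.47, 5.71 and 4.47 TPM. 42 of the 47 were highest in replicate 2, the library in which long genes were higher, against 53.1% of all genes with a mean of at least 1 TPM. The number was 27 under TMM scaling and 19 with the length trend removed, for which the share of all genes was not computed.

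*Trp53* itself (chromosome 11, 69580348 to 69591873 on GRCm38) was at 126, 235 and 380.2 TPM, so that replicate 3 was 3.01 times replicate 1. How reads from the human part of the HUPKI transcript were counted is not given in the sources used here, so this level may cover only part of the transcript. Its targets had no single order. *Bax*, a pore-forming cell death protein, had the same order as *Trp53*, at 147, 180.5 and 224 TPM. *Cdkn1a* and the cyclin gene *Ccng1* (56.8, 53.7 and 40.3 TPM) were instead highest in replicate 1. *Mdm2*, which codes for the ligase that degrades p53, was at 45.5, 55.0 and 37.9 TPM, highest in replicate 2. Of the 23 genes of the p53 circuit with a mean of at least 1 TPM, 17 were lowest in replicate 3, against 42.2% of all genes at that level. Under TMM scaling the number was 13, for which the share of all genes was not computed. *Plk2* was at 28.9, 8.46 and 3.61 TPM. *Bbc3*, which codes for PUMA, was at 18.3, 19.7 and 10.9 TPM. *Pmaip1*, which codes for NOXA, was at 2.92, 2.39 and 2.26 TPM. The survival genes *Mcl1* and *Bcl2* were at 165, 180.3 and 126 TPM and at 45.9, 47.7 and 45.9 TPM, respectively, above *Bcl2l1* at 22.8, 27.3 and 20.3 TPM.

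Interferon-stimulated genes were transcribed in every library, and no stimulus is stated for these mice. All 50 interferon-stimulated genes on the list had a mean of at least 1 TPM, as did 93.5% of all genes, and their median was 48.2 TPM. The family of *Ifitm3*, restriction factors known to be high in stem cells, also held *Ifitm2* at 1769, 1694 and 1815 TPM. *Ifitm1* was at 1262, 1116 and 1386 TPM. Classical inducible members lay lower. *Isg15* was at 106, 86.8 and 78.6 TPM. *Irf7* was at 116, 123.0 and 65.5 TPM. *Ifit1* was at 22.4, 28.0 and 12.1 TPM. *Mx1* was at 1.29, 3.38 and 2.94 TPM. 38 of the 50 were lowest in replicate 3, against 42.2% of all genes with a mean of at least 1 TPM, and 35 were under TMM scaling. *Nlrp1a*, an inflammasome sensor, was at 0.199, 3.90 and 6.90 TPM.

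The spread between libraries was small for most genes. Over the 8404 genes with a mean of at least 10 TPM, the highest library was a median of 1.36 times the lowest, and the median coefficient of variation was 16.2%. 412 genes (4.90%) were at least 2 times apart, 82 at least 3 times and 32 at least 10 times. Of the 412 genes, 219 (53.2%) were highest in replicate 2, 128 in replicate 1 and 65 in replicate 3. Over all 8404 genes those numbers were 4368, 2023 and 2013. The share in replicate 2 was thus near that of all genes, which was 53.1% at a mean of at least 1 TPM. Under TMM scaling 329 genes were at least 2 times apart. By their TPM, 97 of these were highest in replicate 2, 144 in replicate 1 and 88 in replicate 3. The number at least 2 times apart on TPM was 198 without replicate 2, 165 without replicate 1 and 201 without replicate 3. With 3 libraries of a single group these are descriptions of the libraries, and no test was run.

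**Figure D4:**
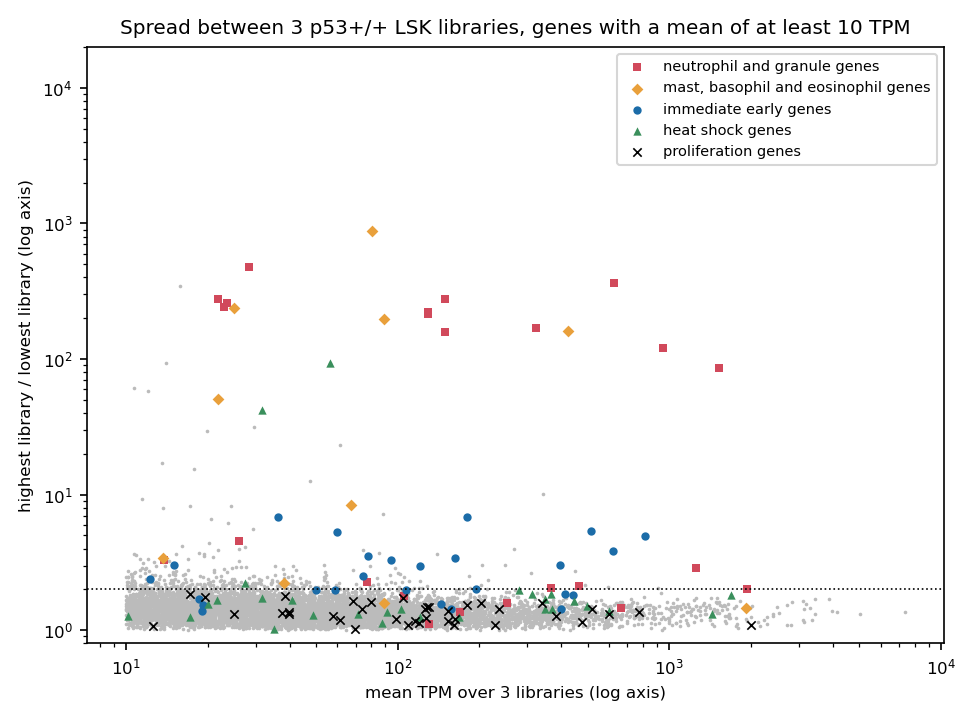
Highest over lowest library (y axis, log scale) against mean TPM (x axis, log scale) for genes with a mean of at least 10 TPM, with 5 groups marked by colour and shape. Grey points are all other genes and the dotted line marks 2 times; *Epx* and *Eif2s3y*, which were at 0 in replicate 1, have no ratio and are not drawn. Genes of the neutrophil and the mast, basophil and eosinophil groups lie at the top, while the proliferation genes all stay under 2 times. Some genes of the granulocyte groups reached the mean of 10 TPM only through replicate 2.

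Genes of granulocytes were prominent at the top. The 20 genes with the largest ratios were *Eif2s3y*, *Epx*, *Ear1*, *Cd177*, *Ngp*, *Ear6*, *Ltf*, *Mmp8*, *Mmp9*, *Fcnb*, *Prg3*, *Retnlg*, *Chil3*, *Prss34*, *Camp*, *Prg2*, *Lcn2*, *S100a9*, *Hspa1b* and *Alox15*, and all but *Hspa1b* were highest in replicate 2. Several reached the mean of 10 TPM only through replicate 2. Without it *Cd177*, *Mmp8* and *Alox15* had means of 0.689, 0.525 and 0.676 TPM. For such genes a large ratio with replicate 2 highest was built into the filter. *S100a8*, a subunit of the neutrophil cytosolic protein calprotectin, was at 50.2, 4330.2 and 173 TPM. *S100a9*, the other subunit, was at 22.8, 2733 and 92.0 TPM. The secondary granule genes followed. *Ngp* was at 5.02, 1836 and 36.8 TPM. *Camp*, the cathelicidin, was at 5.43, 926 and 40.3 TPM. *Ltf*, the lactoferrin, was at 1.57, 433 and 11.3 TPM. *Lcn2*, the iron-carrier-binding lipocalin, was at 2.69, 427 and 17.3 TPM. The tertiary granule protease *Mmp9* was at 0.271, 69.7 and 0.763 TPM. In each case replicate 2 was far above both other libraries, and replicate 3 above replicate 1.

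Of the 25 measured neutrophil and granule genes, 24 had a mean of at least 10 TPM. Of the 24, 19 (79.2%) were past the 2-fold mark, against 4.90% of all genes at that level, and 17 of the 19 were highest in replicate 2. Some reached that mean only through replicate 2: without it *Mmp9*, *Ltf* and *Lcn2* had means of 0.517, 6.43 and 9.99 TPM. For such genes a large ratio with replicate 2 highest follows from the filter. The share is therefore not comparable with that of all genes. None of the 25 was at 0 in any library. Together they held 0.408%, 1.89% and 0.56% of all TPM. The number past the mark was 14 without replicate 1, 6 without replicate 2 and 17 without replicate 3. The mean was then taken over the libraries kept, so the genes that passed the filter differed. Over all genes 412 became 165, 198 and 201, respectively. *Lyz2*, a lysozyme gene of myeloid cells, was at 922, 2095 and 730.3 TPM and varied by 2.87 times, far less than *Ngp* at 366 times. The primary granule genes *Prtn3* and *Ctsg* were highest in replicate 3.

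Eosinophil and basophil genes were also highest in replicate 2. *Prg2*, the major basic protein of eosinophils, was at 7.64, 1228 and 34.4 TPM. *Epx*, the eosinophil peroxidase, was at 0, 109.8 and 0.939 TPM. With no count in replicate 1, where 3 counts would be 0.107 TPM, *Epx* was at least 1030.2-fold higher in replicate 2. The ribonuclease *Ear2* was at 1.201, 61.3 and 2.79 TPM, and the share of reads that belongs to *Ear1*, *Ear2* or *Ear6* is uncertain because these genes are near copies of each other. *Prss34*, a protease of basophils, was at 1.26, 247.5 and 18.2 TPM. *Mcpt8*, another, was at 16.7, 140.4 and 45.1 TPM. *Cpa3*, of mast cells and their progenitors, was at 24.3, 53.9 and 36.4 TPM. Of 18 genes, 11 had a mean of at least 10 TPM. Of the 11, 9 (81.8%) were past the 2-fold mark, against 4.90% of all genes at that level, and all 9 were highest in replicate 2. Without replicate 2, *Epx*, *Ear2* and *Prss34* had means of 0.470, 2.00 and 9.72 TPM, so they passed the filter only through that library. A large ratio with replicate 2 highest follows from the filter for such genes. The share is therefore not comparable with that of all genes. The count was 8 without replicate 1, 2 without replicate 2 and 9 without replicate 3, each with the mean taken over the libraries kept. Over all genes 412 became 165, 198 and 201, respectively. The list summed to 2551, 4015 and 1886 TPM, of which *Srgn*, a proteoglycan core of many blood cells, gave 2394, 1708 and 1649 TPM. The part of these transcripts in the other values of replicate 2 was not tested.

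**Figure D5:**
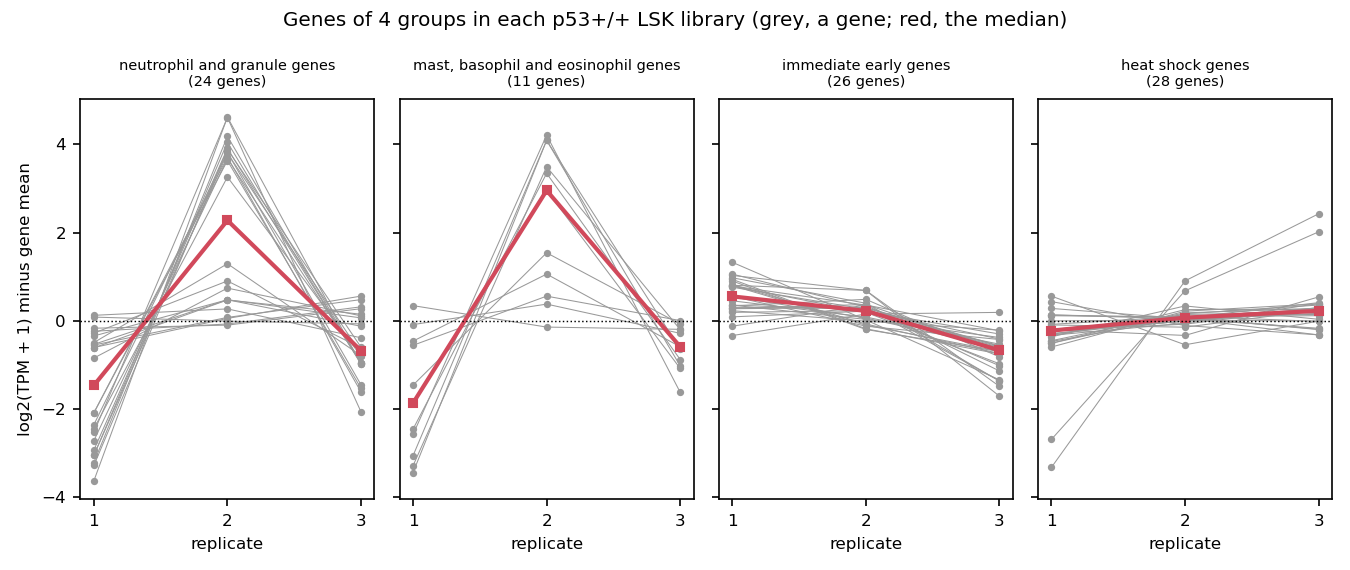
Deviation of each gene from its own mean on the log2(TPM + 1) scale (y axis) in p53+/+ LSK replicates 1, 2 and 3 (x axis) for genes of 4 groups with a mean of at least 10 TPM. Grey lines are genes and the red line is their median. The granulocyte groups peak in replicate 2, the immediate early genes are lowest in replicate 3, and *Hspa1a* and *Hspa1b* depart most from the other heat shock genes. Some genes of the granulocyte groups reached the mean of 10 TPM only through replicate 2.

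Immediate early genes, which are switched on within minutes of a signal or of handling, were lowest in replicate 3. *Fos* was at 1147, 1058 and 233 TPM. *Egr1* was at 279.7, 221 and 41.1 TPM. *Dusp1*, a phosphatase that ends MAP kinase signalling, was at 865, 515 and 161 TPM. *Zfp36*, which destabilizes cytokine mRNA, was at 928, 686 and 243 TPM. *Klf2* was at 96.7, 64.5 and 18.3 TPM. *Nr4a1* was at 70.7, 28.0 and 10.3 TPM. *Jun* and *Ier2* moved less, at 514, 524 and 286 TPM and at 489, 486 and 265 TPM, respectively, and *Myc* was instead lowest in replicate 1. Of the 33 genes on the list with a mean of at least 1 TPM, 30 were lowest in replicate 3, against 42.2% of all genes, and the count was the same under each of the other scalings. 24 were highest in replicate 1, against 25.4% of all genes. Of the 26 with a mean of at least 10 TPM, 15 were past the 2-fold mark (57.7%), against 4.90% of all genes, and the count was 10 without replicate 1, 14 without replicate 2 and 3 without replicate 3. Over all genes 412 were past that mark, and 165, 198 and 201 were without replicate 1, 2 or 3. The list summed to 7162, 5768 and 2751 TPM. The chemokine genes *Ccl3* and *Ccl4*, at 309.6, 199 and 102 TPM and at 391, 313 and 98.6 TPM, were also lowest in replicate 3.

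The heat shock genes split. *Hsp90ab1* and *Hspa8*, the constitutive chaperones, were at 1151, 1829 and 2098 TPM and at 1332, 1286 and 1688 TPM. Of the list, 19 of 32 genes with a mean of at least 1 TPM were highest in replicate 3, against 21.5% of all genes at that level. Of the 28 with a mean of at least 10 TPM, 3 (10.7%) were past the 2-fold mark, against 4.90% of all genes: *Hspa1a*, *Hspa1b* and *Hspb11* (39.0, 17.6 and 26.0 TPM). The inducible genes *Hspa1b* and *Hspa1a* (chromosome 17, 34969359 to 34972156 on GRCm38 for *Hspa1a*) were at 1.33, 42.7 and 124 TPM and at 1.61, 25.9 and 67.1 TPM, so that in each case replicate 3 was 93.8 and 41.8 times replicate 1, respectively. The pair codes for nearly the same protein, and how reads were divided between them is uncertain, while both carry the same order of libraries. *Hsph1*, a co-chaperone, had that order too, over a smaller range, at 28.7, 45.0 and 48.3 TPM. *Dnajb1*, another inducible gene, had the reverse order, at 132, 127 and 105 TPM. *Hspa1a* and *Hspa1b* are shown with the sequence before their start sites because they moved together. *Dusp1* and *Zfp36* are shown as immediate early genes that hold a match of the motif named below. They do not stand for that group, most of which held neither of their motifs, as counted below.

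The 250 bases before the RefSeq start site (GRCm38.p6, all on the minus strand, 5′ to 3′) are given with capitals for the motif match. *Hspa1a* lies at chr17:34972157-34972406 and *Hspa1b* at chr17:34959239-34959488, both with the heat shock element GAANNTTC in capitals. *Dusp1* lies at chr17:26508473-26508722, with the cAMP response element TGACGTCA in capitals, and *Zfp36* at chr7:28379229-28379478, with a CArG box, the binding site of serum response factor, in capitals.
Hspa1a: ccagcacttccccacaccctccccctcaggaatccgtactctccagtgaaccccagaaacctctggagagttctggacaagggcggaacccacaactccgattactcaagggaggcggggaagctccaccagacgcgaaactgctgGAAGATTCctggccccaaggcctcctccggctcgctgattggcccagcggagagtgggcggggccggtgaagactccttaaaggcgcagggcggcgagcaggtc
Hspa1b: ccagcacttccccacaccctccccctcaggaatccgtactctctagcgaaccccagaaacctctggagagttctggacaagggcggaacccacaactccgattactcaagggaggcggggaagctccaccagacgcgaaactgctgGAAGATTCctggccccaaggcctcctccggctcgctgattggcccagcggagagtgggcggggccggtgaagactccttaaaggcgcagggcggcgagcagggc
Dusp1: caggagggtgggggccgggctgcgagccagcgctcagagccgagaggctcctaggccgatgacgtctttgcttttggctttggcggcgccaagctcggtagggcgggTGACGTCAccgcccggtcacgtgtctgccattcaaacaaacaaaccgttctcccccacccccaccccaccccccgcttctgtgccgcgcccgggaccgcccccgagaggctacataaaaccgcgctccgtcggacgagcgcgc
Zfp36: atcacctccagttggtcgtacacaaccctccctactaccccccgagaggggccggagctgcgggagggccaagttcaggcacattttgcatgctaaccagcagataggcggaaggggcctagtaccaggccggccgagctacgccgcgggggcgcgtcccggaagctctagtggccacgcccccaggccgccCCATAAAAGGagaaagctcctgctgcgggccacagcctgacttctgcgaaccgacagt

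The *Hspa1a* and *Hspa1b* windows were the same at 247 of 250 bases, or 98.8%, and each held its heat shock element from position -104 to -97, counted back from the start. The motifs read the same on both strands, each of the 4 windows held 1 match, and none held a match of another of the motifs. GAANNTTC stood in the window of 7.73% of all 27025 genes that have one, in 6.18% of the genes of the count table, and in 7 of 25 heat shock genes: *Dnaja1*, *Dnajb6*, *Fkbp4*, *Hspa1a*, *Hspa1b*, *Hspd1* and *Hspe1*. Of these, *Dnajb6* was at 34.8, 35.3 and 34.7 TPM. *Hspe1* was at 306, 279 and 512 TPM. TGACGTCA stood in 1.77% of all windows, in 3.02% of those of the count table and in those of 4 of 29 immediate early genes. The CArG box stood in 1.62% of all windows, in 1.45% of those of the count table and in 2 of 29. These matches describe the letters only.

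Of the 412 genes at least 2 times apart, 128 were highest in replicate 1. In 18 of these, replicate 1 was at least 2 times either other library. *Jchain* was at 841, 83.2 and 103 TPM. *Mzb1*, a chaperone of immunoglobulin-secreting cells, was at 61.8, 15.1 and 11.2 TPM, in both cases at least 4 times either other library. The B cell receptor gene *Cd79a* did not share that order and was highest in replicate 2. *Dusp2* and *Dusp5* were at 660.4, 308 and 217 TPM and at 161, 73.6 and 49.2 TPM, respectively. *Rgs1*, which dampens chemokine signals, was also highest in replicate 1, at 231, 125 and 63.3 TPM. Without replicate 2, the largest ratios between replicates 1 and 3 were those of *Hspa1b*, *Hspa1a*, *Hes1*, *Ppbp* and *Jchain*, and *Camp* (7.42 times) and *Ngp* (7.33 times) were still among the first 10, higher in replicate 3.

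The steadiest genes at a mean of at least 100 TPM were *Vkorc1*, *Pdhb*, *Fam216a*, *Cd63*, *Mob2*, *Clic1*, *Clptm1l*, *Ywhah*, *Sft2d1* and *Isoc1*. *Vkorc1*, which recycles vitamin K, was at 248.3, 248.3 and 247 TPM. *Pdhb*, a subunit of pyruvate dehydrogenase, was at 237, 235 and 237 TPM. *Ywhah*, a 14-3-3 protein gene, was at 410.2, 404 and 404 TPM. *Clic1* was at 944, 947 and 936 TPM. Their highest library was between 1.01 and 1.02 times the lowest. By contrast, *Actb*, a common reference gene, varied by 1.14 times, *Gapdh* by 1.24 times and *B2m* by 1.37 times.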

How the data were processed

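RNA from sorted LSK cells was sequenced by the authors, and gene counts were deposited for 9 libraries. The submitters' processing notes name STAR 2.5.2b, featureCounts of Subread 1.5.0, edgeR and build mm10, and the file adds a gene length, taken as deposited. Strand and multi-mapping settings are not given in the sources used here. The deposited table had been filtered (lowest total over all libraries 37 counts), and its fold change and p-value columns for genotype comparisons were not used. Counts of p53+/+ replicates 1, 2 and 3 were divided by length and scaled to a sum of 1000000 (TPM) over the 12647 genes. Variation was the highest over the lowest TPM among genes with a mean of at least 10 TPM, called at 2 times. The ratio was also run on simulated counts without division by length and with a smaller dispersion. That run does not show how the call performs on these data. Alternatives used edgeR 4.0.16 (TMM, upper quartile, dispersion), DESeq2 1.42.0 (size factors), CPM and effective length. Positions came from RefSeq GRCm38.p6 by NCBI gene number, and promoter windows matched 9960 genes. The 33 gene lists and 18 symbol families were chosen with earlier results of these data known, and 844 of 923 list genes were measured. Named genes were the 20 highest, the 20 with the largest and 10 with the smallest ratios, and members of the lists, taken by level and ratio, and *Mzb1*, *Ccl3*, *Ccl4* and *Rgs1* were chosen after their values were seen. Some genes are counted in these groups but not reported here by name. No test was run, since all values describe a single group. Counting error only is covered by the limit for a count of 0 (3 counts).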

Additional observations from a re-analysis of the deposited data

How the results depend on the processing

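The counts of genes with at least 1 TPM and at least 10 TPM stayed within 1.5 times under each alternative, with the libraries left out in turn giving 11407 to 11586 and 7870 to 8075 genes. The share of the 100 highest genes was 13.9% without division by length (CPM). The number of genes at least 2 times apart (412) was 165 to 201 with a library left out, where fewer libraries give smaller ranges by construction. It was 329 with TMM, 330 with DESeq2 size factors, 336 with upper-quartile factors and 294 with the length trend removed, an alternative chosen after seeing the data, which shared 263 genes with the first. Of the genes called on TPM, 53.2% were highest in replicate 2, and of those called under TMM 29.5% were. The highest library was taken from TPM for both shares. The number called was 1990 with no filter on low values, 1437 at a mean of at least 1 TPM, 2579 at 1.5 times and 82 at 3 times. It was 101 at a gene-wise edgeR coefficient of variation of 0.5, for which the cause was not tested. TMM moved the median of all genes in replicate 2 from 0.11 to -0.03 on the log2 scale. Among the 51 group medians, 5 moved by more than the spread between libraries without replicate 2, 2 without replicate 1 and 1 without replicate 3. The number was 6 with effective length and 37 without division by length (CPM). It was 21 when only members with at least 1 TPM in every library were kept, so the group medians depend on these choices. No paired analysis was possible because the values describe a single group and come from no test.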

Other observations

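Genes outside the lists, chosen after their values were seen, showed a further order of libraries. Several genes of ribosome assembly in the nucleolus were highest in replicate 3 and lowest in replicate 1: *Nolc1* was at 48.1, 88.3 and 116 TPM, *Lyar* at 53.3, 91.4 and 136 TPM and *Bysl* at 16.2, 29.1 and 39.8 TPM. The spermidine synthase *Srm* was at 319, 461 and 687 TPM, with the same order. *Npm3* was at 56.0, 28.9 and 77.5 TPM, lowest in replicate 2 instead. The source of this order was not tested.

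Some of the smallest annotated genes stood high in TPM, a scale on which few bases divide their counts. 21 genes were under 200 bases long, and 19 of them had a mean of at least 10 TPM. *Mir1931* (119 bases) was at 125, 65.8 and 31.9 TPM and *Snord96a* (77 bases) at 36.0, 22.0 and 65.6 TPM. Reads of a host transcript and of the small RNA inside it cannot be told apart in such counts. *Erdr1* was at 51.4, 26.0 and 188 TPM, highest in replicate 3.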
